A study of Mus musculus with 2 samples.

Results

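The alpha and beta globin genes encode the chains of haemoglobin, the oxygen carrier of red blood cells, and their RNA was measured by RNA-seq in haematopoietic stem cells, the source of all blood lineages, enriched by sorting from mouse bone marrow. There are 2 libraries. One library is labelled Per2wt (wild-type) and 1 is labelled Per2def (Per2-deficient), both from untreated C57BL/6 mice kept on a 12:12 light/dark cycle. Per2 is a clock gene whose protein represses circadian transcription. The labels give neither the Per2 allele, the sort markers, the number, age or sex of the mice, nor the time of day of collection. The genes were chosen by symbol, from a list of 9, after an earlier look at these data had shown lower globin FPKM in the library labelled Per2def. That contrast was therefore part of the choice, and its values are given below as a description. Of the 9 symbols 8 were found among the 23961 gene symbols used, on 10 rows of each deposited file, and Hbb-b2 had no row in the files used.

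Adult haemoglobin is a tetramer with a pair of alpha chains and a pair of beta chains, each holding a haem group. The alpha genes and the beta genes sit in separate clusters, and each cluster also holds embryonic genes that are active in the first red cells of the embryo and silent in the adult. Globin RNA accumulates late in red cell development, under the transcription factors GATA1 and KLF1. Mouse strains differ in their adult beta pair: C57BL/6 mice carry Hbb-bs and Hbb-bt, and the names Hbb-b1 and Hbb-b2 belong to the pair of other strains.

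The adult copies are almost the same in sequence, which bears on every single-gene value below. Hba-a1 (ENSMUSG00000069919.7, chromosome 11, 32283511 to 32284465) and Hba-a2 (ENSMUSG00000069917.7, chromosome 11, 32296489 to 32297298) lie on the plus strand, and Hbb-bs (ENSMUSG00000052305.6, chromosome 7, 103826534 to 103828096) and Hbb-bt (ENSMUSG00000073940.3, chromosome 7, 103812524 to 103813996) on the minus strand (GENCODE M21, GRCm38). Hba-a1 and Hba-a2 differ at 1 of 429 coding bases, C381T, counted from the A of the start codon. Hbb-bs and Hbb-bt differ at 1 of 444 coding bases, C417T. Both differences are in exon 3, at the third base of codon 127 and of codon 139, counting the start codon as codon 1. The stretches around them are shown 5′ to 3′ on the strand of the gene, with the base that differs in capitals, because it is the one coding base by which a read can tell the copies apart. They were read from the GENCODE M21 transcripts, and the Hba-a1 stretch is at chr11:32284323-32284363, that of Hba-a2 at chr11:32297140-32297180, that of Hbb-bs at chr7:103826672-103826712 and that of Hbb-bt at chr7:103812663-103812703.
Hba-a1: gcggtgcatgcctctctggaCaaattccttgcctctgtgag
Hba-a2: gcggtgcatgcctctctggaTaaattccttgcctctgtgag
Hbb-bs: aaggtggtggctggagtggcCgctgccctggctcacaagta
Hbb-bt: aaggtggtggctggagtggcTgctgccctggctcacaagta

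Over whole transcripts, untranslated ends included, 67.5% of the 50-base windows of Hba-a1 were also in Hba-a2, and 86.9% of those of Hba-a2 were in Hba-a1. For the beta pair the shares were 65.8% of Hbb-bs and 58.3% of Hbb-bt. The embryonic genes shared no 50-base window with an adult gene. Their coding sequences were 62.0% identical to Hba-a1 for Hba-x, 74.1% identical to Hbb-bs for Hbb-bh1 and 74.3% for Hbb-y. A read from an adult copy can thus fit the other copy, while an embryonic read has its own place. The sums over copies are for this reason the values the comparison turns on. Each alpha symbol is on 2 rows in each file, and the files do not say to which place in the genome each row belongs.

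FPKM are fragment numbers divided by transcript length and by the mapped total of the library. Each genotype has 1 library, so there is no error and no test, and each difference is between these libraries and not between the genotypes. Differences are log2(FPKM + 1) in Per2def minus that in Per2wt, which understates the change of low genes, and folds are plain FPKM ratios. Per2 itself was 3.13-fold higher in the library labelled Per2def (6.16 FPKM) than in the library labelled Per2wt (1.96 FPKM). The allele is not named, so the value does not settle whether the labels are right, and all directions given here follow the labels. In bulk RNA, fewer globin-expressing cells and less globin RNA per cell cannot be told apart.

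The files give no fragment totals, but low FPKM values fall in steps. Multiplied by transcript length in kilobases, the step most common among low single-transcript genes was 0.0486 FPKM kb in Per2wt and 0.0395 FPKM kb in Per2def, taken here as the value of 1 fragment. On this scale the adult alpha sum stood for about 3545 fragments in Per2wt and 2157 in Per2def. The adult beta sum stood for 2382 to 2499 and 1506 to 1598, depending on the length taken for Hbb-b1. Among transcripts of 400 to under 1000 bases, the size of the globins, the step came out higher (0.0569 and 0.0558 FPKM kb, from few genes), so these numbers are upper figures. The adult sums therefore rest on far more fragments than the embryonic values.

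Adult alpha globin RNA was lower in the library labelled Per2def. The 2 rows of Hba-a1 held 98.6 and 94.3 FPKM in Per2wt, and 58.7 and 55.8 FPKM in Per2def. The 2 rows of Hba-a2 held 34.0 and 33.8 FPKM in Per2wt, and 4.84 and 4.66 FPKM in Per2def. All 4 alpha rows were higher in the library labelled Per2wt, and the rows of a symbol were close to each other within a library. Summed by symbol, Hba-a1 stood at 193 against 115 FPKM (1.68-fold lower in Per2def, log2 difference −0.75) and Hba-a2 at 67.8 against 9.5 FPKM (7.13-fold lower, −2.71). The adult alpha sum went from 261 FPKM (Per2wt) to 124 FPKM (Per2def), 2.10-fold lower (−1.07). Without Hba-a1 the alpha difference was −2.71, and without Hba-a2 it was −0.75.

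**Figure D1:**
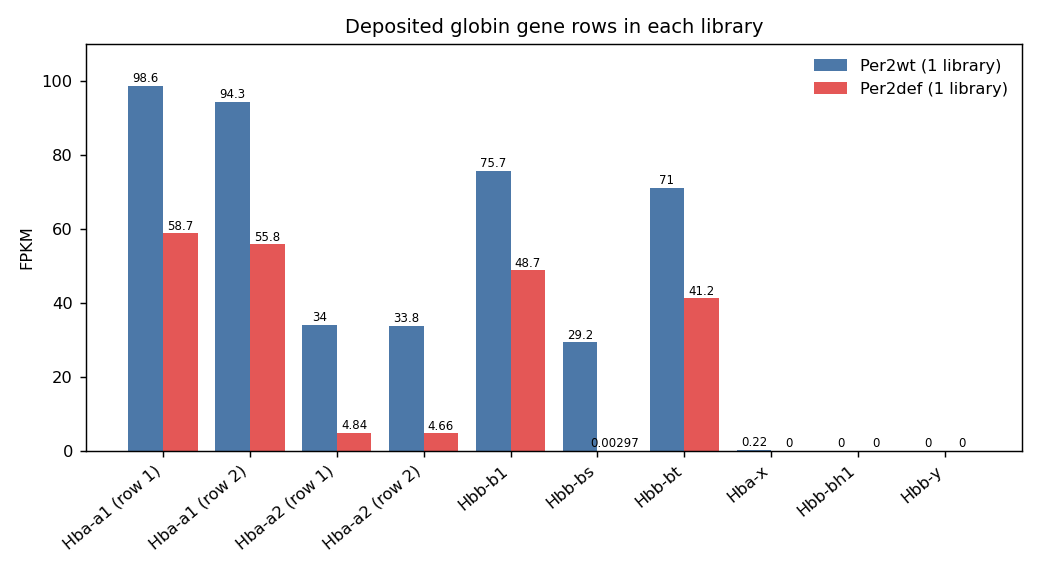
Deposited FPKM (vertical axis, linear, from 0) of each of the 10 globin rows (horizontal axis, with the 2 rows of an alpha symbol ordered by size) in the library labelled Per2wt (blue) and the library labelled Per2def (red), 1 library per bar and no error bars. All 7 adult rows are lower in Per2def. Hbb-bs (29.2 against 0.00297 FPKM) is under a single read there, so no fold is taken from it. Among the other adult rows the widest folds are in Hba-a2 (34.0 against 4.84 FPKM on its higher row). The widest gap in FPKM is in Hba-a1 (98.6 against 58.7 FPKM), and the embryonic rows are at or near 0.

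Adult beta globin RNA was lower in the same library by a similar fold. Hbb-b1 stood at 75.7 FPKM (Per2wt) and 48.7 FPKM (Per2def), 1.55-fold lower (−0.63). Hbb-bt stood at 71.0 and 41.2 FPKM, 1.72-fold lower (−0.77). For Hbb-bs the Per2wt value was 29.2 FPKM and the Per2def value 0.00297 FPKM (−4.91). The Per2def value equals 0.0472 of 1 fragment, under a single read, and no fold is given from it. The adult beta sum went from 176 to 89.9 FPKM, 1.96-fold lower (−0.96). Without Hbb-bs the beta difference was −0.70. GENCODE M21 has no gene named Hbb-b1, and which reads of the C57BL/6 pair its row holds was not tested. Leaving the row out gave a beta difference of −1.26.

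Hba-a2, the alpha copy with the lower FPKM, was lower in Per2def by a far wider fold than Hba-a1. Hbb-bs, the beta symbol with the lowest FPKM, stood under a single read in Per2def. Hba-a2 made up 26.0% of the alpha sum in Per2wt and 7.66% in Per2def, and Hbb-bs 16.6% and 0.0033% of the beta sum. Hba-a1 was 2.85 times Hba-a2 in Per2wt and 12.1 times in Per2def. Hbb-b1 and Hbb-bt kept more alike proportions, with a ratio of 1.07 in Per2wt and 1.18 in Per2def. Hba-a2 and Hbb-bs together went from 97.0 to 9.5 FPKM, which is 87.5 FPKM of the 223 FPKM by which all globins differed. Hba-a1, Hbb-b1 and Hbb-bt together went from 340 to 204 FPKM, the other 135 FPKM. On these 3 symbols alone, a choice made after their values were seen, the differences were −0.75 for alpha, −0.70 for beta and −0.73 in all. How much of the split between copies is read assignment was not tested.

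**Figure D2:**
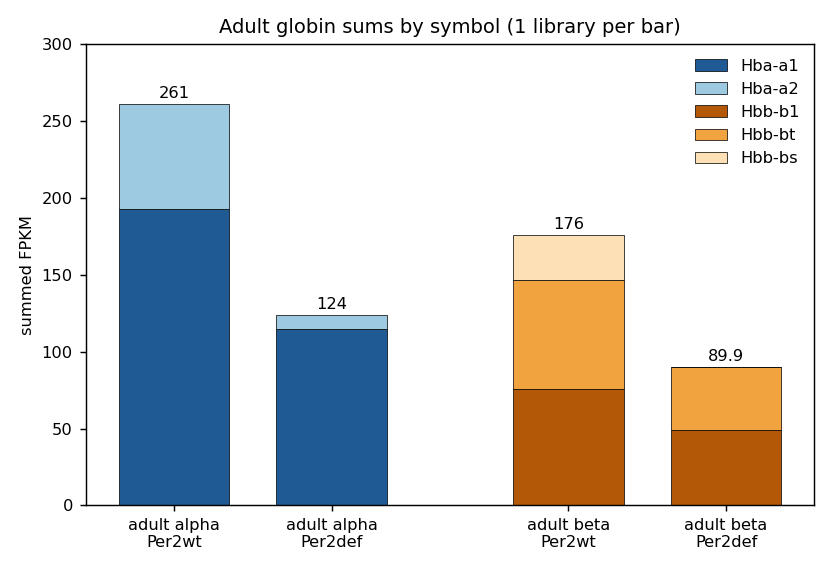
Summed FPKM (vertical axis, linear, from 0) of the adult alpha and adult beta globins in each library, 1 library per bar, with each bar divided by gene symbol. The alpha sum is 261 against 124 FPKM and the beta sum 176 against 89.9 FPKM, and the pale segments of Hba-a2 and Hbb-bs take up a smaller share of the Per2def bars.

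Alpha and beta sums kept nearly the same proportion. The adult alpha sum was 1.48 times the adult beta sum in Per2wt and 1.38 times in Per2def, a log2 difference of −0.10. This ratio is free of library scaling, but it depends on which copies are counted. Its log2 difference was 0.22 without Hba-a2, 0.21 without Hbb-b1 and 0.04 without Hbb-bt, but −0.36 without Hbb-bs and −1.87 without Hba-a1. The direction of so small a difference is therefore not settled by these files. Which class is higher also depends on adding the 2 rows of each alpha symbol. With the highest row per symbol the alpha sum was 132.6 FPKM in Per2wt and 63.6 in Per2def, 0.753 and 0.707 times the beta sum.

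The embryonic genes were at or near 0 in both libraries. Hba-x, the zeta-like alpha chain of the embryo, was listed at 0.22 FPKM in Per2wt, the worth of 2.62 to 3.62 fragments depending on the transcript, and at 0 in Per2def. Hbb-bh1 and Hbb-y, the beta-like chains of the embryo, were listed at 0 in both. A single fragment on Hbb-bh1 would have been worth about 0.0793 FPKM (Per2wt) or 0.0645 FPKM (Per2def). The embryonic sum was thus 0.22 FPKM against 0 (−0.29), which was not a detectable difference at this depth. The theta genes Hbq1a and Hbq1b, minor members of the alpha cluster, stood at 0.109 and 0.0800 FPKM in Per2wt, close to 1 fragment each, and at 0 in Per2def. Globins of other tissues were as low, with Mb (myoglobin) and Cygb (cytoglobin) listed at 0 in both libraries and Ngb (neuroglobin) at 0.0617 FPKM in Per2wt and 0 in Per2def. Adult globin RNA thus made up nearly all globin RNA in both libraries.

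All globins together were 2.04-fold lower in the library labelled Per2def (−1.03), at 214 FPKM against 437 FPKM in the library labelled Per2wt. They made up 0.223% and 0.108% of the FPKM of all genes other than small and predicted RNAs. Counted as 1 gene, they would rank 78th and 117th among those genes. The order of the symbols was Hba-a1, Hbb-b1, Hbb-bt, Hba-a2, Hbb-bs in Per2wt, and the same in Per2def. Hbb-b1 and Hbb-bt, which are neighbours in that order, were within 1.07-fold of each other in Per2wt, and Hbb-bt and Hba-a2 within 1.05-fold. No spread is at hand to tell these neighbours apart. A floor of 1 FPKM in at least 1 library left 11121 genes, of which 111 (0.998%) were lower in Per2def by 2-fold or more and 139 (1.25%) higher. Among the 5 globin symbols past that floor, 2 were at least 2-fold lower (Hba-a2 and Hbb-bs) and none higher, and Hbb-bs passed the floor through Per2wt alone. Most of the 111 were small or predicted RNAs, and without these 16 of 10080 genes (0.159%) were at least 2-fold lower. The 3 embryonic symbols did not pass the floor. Since the globins were chosen on this contrast, the shares serve as scale only.

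**Figure D3:**
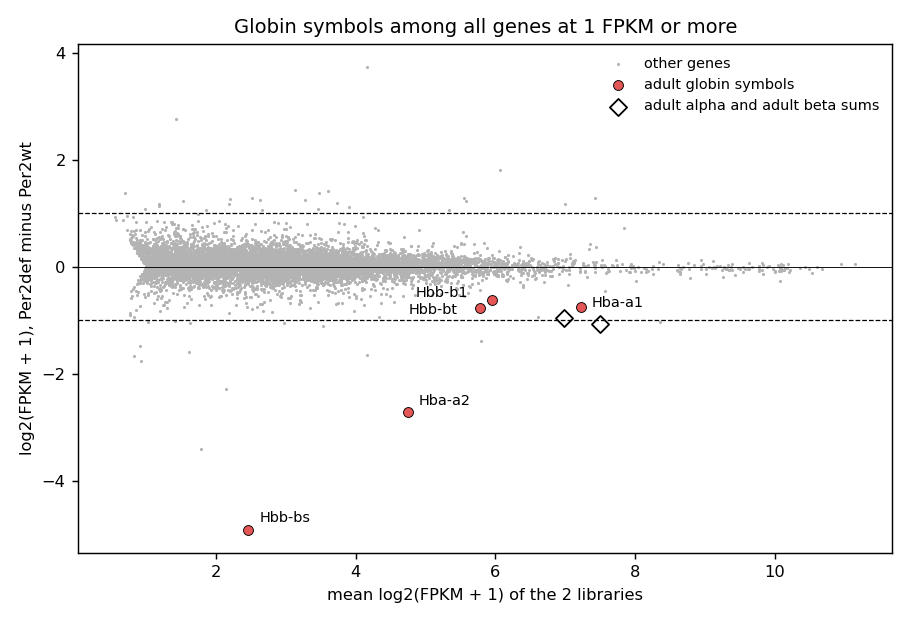
Difference in log2(FPKM + 1), Per2def minus Per2wt (vertical axis), against the mean log2(FPKM + 1) of the 2 libraries (horizontal axis) for genes at 1 FPKM or more, small and predicted RNAs left out. Grey points are other genes, red points the 5 adult globin symbols, diamonds the adult alpha and beta sums, and dashed lines mark 2-fold. All 5 symbols lie under 0, Hba-a2 (−2.71) and Hbb-bs (−4.91) far under the −1 line.

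The globins were also set beside abundant genes. There were 1572 genes with 20 FPKM or more in Per2wt or Per2def, small and predicted RNAs left out, and the middle 95% of differences ran from −0.35 to 0.34. Hba-a1, Hbb-b1 and Hbb-bt, at 20 FPKM or more in both libraries, were under that range. Hba-a2 and Hbb-bs were under it as well, but they reached 20 FPKM through Per2wt alone, so they had to be lower in Per2def. The 5 genes of this group at least 2-fold lower in Per2def were Hbb-bs, Hba-a2, Apobec3 (−1.66), Myl10 (−1.39) and Erdr1 (−1.02). Apobec3 also reached 20 FPKM through Per2wt alone (30.7 against 9.06 FPKM), so it could only be lower. Outside the globins, the 5 genes at 5 FPKM or more with the difference nearest to that of all globins summed were Erdr1, at 468 against 229 FPKM, Arl3 (−1.04), Tmem254b (−1.11), Gpr56, an adhesion receptor gene, at 134 against 69.3 FPKM (−0.94), and Egr1, an immediate early transcription factor gene (−0.94). This likeness is the gap between single differences over 2 libraries, among 6054 genes ranked. Arl3 reached 5 FPKM through Per2wt alone (10.3 against 4.48 FPKM), so it could only be lower.

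Most haem synthesis genes were slightly higher where the globins were lower, while the erythroid first enzyme was lower too. Over all 11121 genes the median difference was 0.05, with 62.0% higher and 38.0% lower in Per2def. The counts of every list from here on are to be read beside these shares. Of 22 genes for haem synthesis and its iron supply, 18 were higher and 4 lower, with a median of 0.21 and none past 2-fold. Alas2, the erythroid first enzyme of the pathway, was at 1.46 against 0.792 FPKM (−0.46). It reached 1 FPKM through Per2wt alone, so it could only count as lower. Alas1, which encodes that enzyme in other cells, was at 7.35 and 7.74 FPKM (0.07). Later enzymes were higher, with Alad at 4.87 against 7.06 FPKM (0.46) and Cpox at 18.5 against 23.2 FPKM (0.31). Slc25a38, the mitochondrial glycine carrier, was at 5.69 against 8.20 FPKM (0.46), and Tfrc, the transferrin receptor gene, at 14.3 against 16.9 FPKM (0.23). The other 3 lower genes differed little, with Slc25a37, the mitochondrial iron importer, at −0.10, Iscu at −0.10 and Abcg2 at −0.07. The ratio of all globins to Alas2 was 299 in Per2wt and 270.3 in Per2def, so these differed by similar folds.

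Membrane and skeleton genes of red cells were higher in the library labelled Per2def while globins were lower. Of 18 listed genes 15 were at 1 FPKM or more, and all 15 were higher, with a median of 0.42 and none past 2-fold. Rhag, a Rhesus complex channel gene, was at 5.41 against 9.82 FPKM (0.75), Add2, the beta adducin gene, at 5.27 against 9.24 FPKM (0.71), and Rhd at 9.74 against 15.9 FPKM (0.65). Sptb, the erythroid beta spectrin gene, was at 1.78 against 3.44 FPKM (0.67). Each of these genes differed in the direction opposite to the globins.

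Genes of earlier erythroid progenitors were also higher in that library. Of 16 genes 15 were higher and 1 lower, with a median of 0.43 and none past 2-fold. Car1, a carbonic anhydrase gene, was at 177 against 294 FPKM (0.72), and its relative Car2 at 152 against 196 FPKM (0.37). Ctse, a cathepsin gene, was at 14.0 against 24.0 FPKM (0.73), Sphk1, a sphingosine kinase gene, at 14.6 against 24.2 FPKM (0.69) and Blvrb, a haem breakdown enzyme gene, at 38.0 against 57.1 FPKM (0.58). Epor, the erythropoietin receptor gene, was at 7.82 against 11.9 FPKM (0.54). The exception was Icam4, a red cell adhesion antigen gene, at 4.95 against 3.74 FPKM (−0.33). The ratio of all globins to Car1 was 2.46 in Per2wt and 0.728 in Per2def.

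RNAs kept late, in reticulocytes and red cells, split evenly. Of 20 listed genes 18 were at 1 FPKM or more, 9 higher and 9 lower, with a median of 0.02. The widest difference among those lower in Per2def was in Alas2, which reached 1 FPKM through Per2wt alone. After it came Trim58, a ubiquitin ligase gene of late erythroblasts, at 3.0 against 2.08 FPKM (−0.38). Fbxo7, another ubiquitin ligase subunit gene, followed at 14.6 against 11.3 FPKM (−0.35). Slc4a1, the gene of the band 3 anion exchanger, did not reach 1 FPKM in either library. The summed FPKM of the list were 131 in Per2wt and 129 in Per2def, with no member at 0. Whether RNA of mature red cells or reticulocytes in the sorted cells contributed to the globin difference was not tested.

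**Figure D4:**
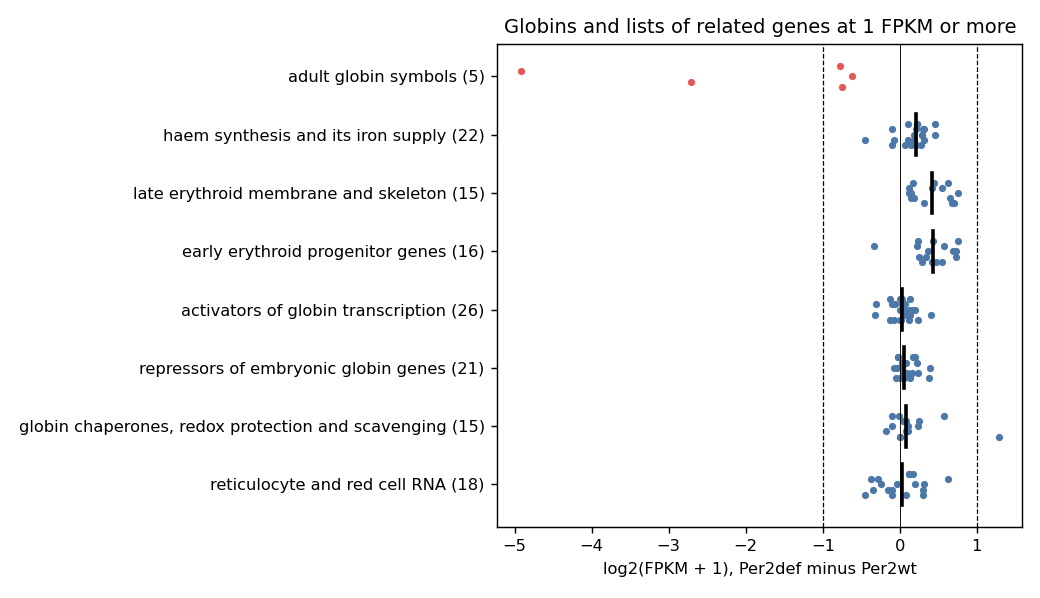
Difference in log2(FPKM + 1), Per2def minus Per2wt (horizontal axis), of each gene at 1 FPKM or more in the adult globins (red) and in 7 lists of related genes (blue), with the number of genes in brackets, the list median as a black bar and 2-fold as dashed lines. The globins lie between −4.91 and −0.63, while the early erythroid list (median 0.43) and the membrane list (median 0.42) lie mostly over 0.

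Transcription factors of the globin genes differed little. Of 26 measured genes on the activator list 17 were higher and 9 lower, with a median of 0.03 and none past 2-fold. The list is wider than its name, as it also holds corepressors such as Cbfa2t3. Klf1, which drives adult beta globin, was at 16.2 against 21.8 FPKM (0.41), Gata1 at 10.7 against 12.8 FPKM (0.24) and Tal1, a partner of Gata1, at 12.7 against 14.7 FPKM (0.19). Lower were Cbfa2t3, a corepressor in the same complex, at 15.0 against 11.8 FPKM (−0.33), and Klf10 at 6.12 against 4.74 FPKM (−0.31). Of 21 measured repressors of embryonic globin genes 16 were higher and 5 lower, with a median of 0.05. Bcl11a, a main silencer of embryonic beta-like genes, was at 23.2 against 25.6 FPKM (0.14), and Zbtb7a, which acts beside it, at 11.1 against 13.2 FPKM (0.23). The widest differences were in Sox6, at 0.679 against 1.20 FPKM (0.39), and Gatad2b, a NuRD complex subunit gene (0.38). Sox6 reached 1 FPKM through Per2def alone, so it could only count as higher. The NuRD genes Mbd2 (0.23) and Gatad2a (0.20) came after Zbtb7a. The 5 lower genes, Myb, Trim28, Ehmt1, Prmt5 and Mbd3, lay between −0.07 and −0.02. Both medians turned slightly negative with 2 of the 3 other scalings, like that of all genes with 1 of them.

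Chaperones and scavengers of globin were measured in part. The alpha chain chaperone gene Ahsp was not matched to a row. Of 15 measured genes of the list 11 were higher and 4 lower, with a median of 0.08. Hp, which encodes the haemoglobin-binding plasma protein haptoglobin and is also a granulocyte gene, was at 2.67 against 7.93 FPKM (1.28), the one member past 2-fold. Prdx2, an abundant red cell peroxidase gene, was at 123 against 145 FPKM (0.24), and Cat, catalase, at 13.6 against 16.3 FPKM (0.25). The lower genes were Cyb5r3, a methaemoglobin reductase gene (−0.18), its partner Cyb5a (−0.10), Gpx1 (−0.10) and Ftl1 (−0.01). Eif2ak1, the haem-sensing kinase that restrains globin translation, was at 11 FPKM in both (0.00).

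Genes at 1 FPKM or more next to the alpha cluster were higher or differed little. No gene next to the beta cluster could be compared at that floor. Within 250 kb of the alpha cluster 10 further genes were in the files, and 5 were at 1 FPKM or more. Nprl3, whose introns hold enhancers of the alpha genes, lies 8.69 kb from the cluster and was at 4.73 against 5.63 FPKM (0.21). Mpg was at 3.42 against 3.46 FPKM (0.01), Snrnp25 at 12.1 against 12.8 FPKM (0.08), Ubtd2 at 1.49 against 2.39 FPKM (0.44) and Stk10 at 6.79 against 6.31 FPKM (−0.09). Around the beta cluster 38 of 44 annotated genes are olfactory receptor genes, and none of the 31 found in the files reached 1 FPKM.

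The promoters of the adult genes carry CACCC and CCAAT boxes, and within the stretches shown their order in Hba-a2 is not that in the beta genes. The stretches below, from the RefSeq promoters (GRCm38.p6), are shown as a description. CACCC and CCAAT are in capitals where they read on the strand shown. Whether these boxes bear on the globin difference was not tested. The Hbb-bt stretch holds a further CCAAT on the other strand, just before the marked one, left in lower case. In general, KLF factors bind CACCC boxes and NF-Y binds CCAAT boxes. The Hba-a2 stretch is at chr11:32296396-32296437 on the plus strand, that of Hbb-bs at chr7:103827997-103828026 and that of Hbb-bt at chr7:103813991-103814020 on the minus strand.
Hba-a2: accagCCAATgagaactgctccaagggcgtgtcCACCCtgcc
Hbb-bs: tagagccaCACCCtggtaagggCCAATctg
Hbb-bt: cagggtaaCACCCtggcattggCCAATctg

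Hba-a1 and Hba-a2 were identical at 297 of 297 aligned promoter bases. CCAAT begins 91 bases before the RefSeq start of Hba-a2, 76 before that of Hbb-bs and 75 before that of Hbb-bt. GENCODE starts both beta genes further upstream than RefSeq. The Hbb-bs stretch therefore lies inside the GENCODE span of the gene, and the Hbb-bt stretch overlaps the edge of its span. In the Hba-a2 stretch CACCC follows CCAAT and in the beta stretches it precedes it. Outside that stretch, the alpha promoters also hold a CACCC upstream of CCAAT. It begins 170 bases before the RefSeq start of Hba-a2 and 167 before that of Hba-a1. In windows of 300 bases and on both strands, CACCC was in all 6 member promoters in the table (Hbb-b1 and Hbb-bh1 not among them) and in 57.5% of 32851 promoters. CCAAT was in 5 of the 6, all but Hba-x, against 37.4% of all. ATATAA, around 30 bases before the start, was in 5 of the 6, all but Hbb-y, against 9.82%, and GATAA, the core of GATA sites, was in all 6 against 25.4%. These motifs are short, some are in the same promoter more than once, and a match is a description of letters.

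Markers of other blood cells are given here beside the globins. Over all 11121 genes at 1 FPKM or more, 62.0% were higher and 38.0% lower in Per2def, and the counts below are to be read beside these shares. The neutrophil granule list had 14 of 15 measured genes higher and Retnlg lower (2.16 FPKM in Per2wt, 0 in Per2def), with a median of 1.18, and its summed FPKM was 536 in Per2wt and 1029 in Per2def, with S100a8 at 109 against 266 FPKM and Mpo at 143 against 181 FPKM, the highest 2 by mean, and S100a9 at 83.6 against 191 FPKM. The platelet list had 8 of 12 lower, 1 of them, Thbs1, past 2-fold at −2.28 (median −0.11, summed 79.0 and 67.5 FPKM), with Pf4 at 15.8 against 13.9 FPKM and Plek at 13.4 against 12.5 FPKM, and Gp6 at 0 in both. The macrophage list had 7 of 8 higher (median 0.12, summed 61.7 and 79.0 FPKM), with Lyz2 at 38.1 against 44.0 FPKM and Ly6c2 at 6.60 against 15.0 FPKM. The T cell list had 7 of 8 higher (median 0.40, summed 20.3 and 27.6 FPKM), with Lat at 8.75 against 9.26 FPKM and Lck at 4.12 against 5.65 FPKM. Of the B cell list 1 gene was measured, Cd79b (6.00 against 5.29 FPKM), and Igll1 was at 0 in both. The stem cell list had 10 of 15 lower (median −0.04, summed 265 and 246 FPKM), with Cd34 at 90.5 against 83.9 FPKM and Kit at 42.7 against 43.6 FPKM. Cd3g and Cd4 of the T cell list reached 1 FPKM through Per2def alone, so they could only count as higher. Retnlg, Thbs1, Treml1 (platelet list) and Tek (stem cell list) reached it through Per2wt alone, so they could only count as lower. The part of a different cell makeup in the globin difference was not tested.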

How the data were processed

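RNA-seq of 1 library labelled Per2wt and 1 labelled Per2def was used, grouped by the genotype label. The deposited unit is FPKM per gene. The submitters' processing notes name Cufflinks, CASAVA 1.8, TopHat and Bowtie2, and the builds GRCm38 and mm10. Per the labels' protocols, poly(A) RNA was selected and the library kit marks strand. Not given in the sources used here are the annotation, read length, strand setting, mapped totals and the handling of reads that map to several places.

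Each file holds 24487 rows. The 9 rows flagged as having too much data and 27 rows with symbols turned into dates were left out, and rows sharing a symbol were summed. Differences are log2(FPKM + 1), with a floor of 1 FPKM in either library for counts and medians. No test fits 1 library per group. Members, the 14 gene lists and promoter motifs were chosen with earlier results of these data known. Of 229 list symbols 221 were found, 5 of them by an older name. Small or predicted RNAs were taken by symbol pattern. Named genes were all members, up to 5 genes of widest difference per related list with 12 fixed erythroid genes, the 2 most abundant genes per list of another cell type, the 5 genes nearest in difference to the globin total, and genes within 250 kb of a cluster at 1 FPKM or more. A few genes that the rule names are not reported here. Outside this rule, and chosen after seeing their values, are Alas1, Eif2ak1, Apobec3, Myl10, Retnlg, Thbs1, S100a9, Gp6, Igll1, Cd3g, Cd4, Treml1 and Tek. So are the globin-fold genes below 1 FPKM and lower genes of the haem, repressor and chaperone lists not among the widest.

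Coding sequence and shared windows came from GENCODE M21 transcripts, and promoters from RefSeq. The procedures were tested on simulated data. Python 3.11.15 and pandas 2.3.3 were used. Alternatives were pseudocounts of 0.1 and 0.5 FPKM, 3 other scalings (median of ratios, upper quartile, a fixed total), other floors, 1 row per symbol and leaving out single members. Leaving out Hba-a2 and Hbb-bs together was added after their values were seen.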

Additional observations from a re-analysis of the deposited data

How the results depend on the processing

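Adult alpha, adult beta and all-globin sums had 9, 10 and 15 alternatives. Their log2 differences ran from −2.71 to −0.75, −1.26 to −0.70 and −1.29 to −0.73. No globin row was higher in Per2def, so only the 3 other scalings could have turned the direction. Under these the alpha sum lay between −1.14 and −1.07, the beta sum between −1.03 and −0.97 and all globins between −1.10 and −1.03. The −0.73 came from leaving out Hba-a2 and Hbb-bs together, a choice made after their values were seen. For the alpha and beta sums that choice repeats leaving out Hba-a2 or Hbb-bs alone. The lowest alpha value came without Hba-a1 (−2.71), where Hba-a2 alone remains. The embryonic sum was −1.68 with a pseudocount of 0.1 FPKM and 0 without Hba-x. The alpha to beta ratio (−0.10) was −1.87 without Hba-a1 and turned to 0.22 without Hba-a2, 0.21 without Hbb-b1 and 0.0356 without Hbb-bt. The cause was not tested. A pseudocount of 0.1 FPKM put 217 genes past 2-fold higher, and leaving out small or predicted RNAs gave 26 higher and 16 lower, fewer genes being compared. Of 117 list medians 111 held their sign and 6 turned. Scaled by the median of ratios, the activators stood at −0.0364, the repressors at −0.0205, the reticulocyte list at −0.0367 and the median of all genes, counted apart, at −0.00985. Scaled by the upper quartile, the activators stood at −0.0248, the repressors at −0.00794 and the reticulocyte list at −0.026. Choosing 1 symbol where symbols overlie each other was not run, because the annotation used has no Hbb-b1 and so cannot place it, and leaving out Hbb-b1 is the nearest alternative. No paired analysis was possible because each group has 1 library. Depth limits the embryonic and theta genes, which rest on at most a few fragments.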
